A study of Mus musculus with 34 samples.

Results

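The loci described here are sites that AP-1 occupied in macrophages after 1 h of Kdo2 lipid A (KLA) and that had no peak of the resting AP-1 monomers beforehand. Peaks of the 6 AP-1 monomers mapped in KLA-treated C57BL/6 cells, ATF3, Jun, JunD, Fos, FosL2 and JunB, were merged into 43239 loci wherever they shared at least 1 bp. A locus was kept if it held a peak of ATF3, JunD, Fos and JunB and overlapped no ATF3, Jun or JunD peak of vehicle-treated (Veh) cells. This left 2546 loci, 5.89% of all KLA loci and 13.1% of the 19462 KLA loci without such a Veh peak, and they are called the new loci below. They were thus chosen by the ATF3, JunD, Fos and JunB peaks of KLA and the ATF3, Jun and JunD peaks of Veh, and the values in those lists describe the selection and are not findings.

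The cells were thioglycollate-elicited peritoneal macrophages (TGEMs) from mice, treated for 1 h with PBS (Veh) or with KLA, a lipid that activates the receptor TLR4. The labels give the strains as C57Bl/6EiJ (C57BL/6J in the study's methods) and Balb/cJ, and name a PPARg knockout, titled C57Bl6-PPARgKO. The driver of its deletion is not given in the sources used here. The study's methods give the C57BL/6J and BALB/cJ mice as male and 8 weeks old, and state no separate sex or age for the knockout. ChIP-seq lists covered the 6 monomers, PU.1 and CEBPa in C57BL/6 with both treatments, PPARg in C57BL/6 with Veh, the monomers other than FosL2 in BALB/cJ with both treatments, and ATF3, Jun and JunD in the knockout with Veh only, which makes 30 lists. Each list joins all replicate experiments of its condition, so there were no replicates to test, and loci are not replicates. Where a percentage below carries an interval, it is a 95% Wilson interval that covers counting error only.

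AP-1 is a family of leucine-zipper proteins that bind DNA as dimers, most strongly at the TRE, TGACTCA. Resting macrophages express some monomers, while Fos and JunB are classical immediate-early genes that inflammatory signals switch on within minutes. PU.1, an Ets factor, and CEBPa, another leucine-zipper factor, are lineage-determining factors that open many macrophage enhancers, and TLR4 also releases NFκB, a family of inducible factors, into the nucleus. A region bound only after stimulation can therefore be one that the lineage factors already occupied or one where they are absent at rest.

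The Veh lists that defined absence held lower counts than their KLA counterparts. The counts summed to 1668345 in the ATF3 Veh list against 3537782 in KLA, to 466030 against 622264 for Jun, and to 1178031 against 10395306 for JunD. A count is the number that the authors deposited with a peak and is not scaled to library size. The part of this difference in the absence of a Veh peak was not tested. As a check of the cell type, PU.1 Veh peaks lay within 5 kb of 8 of 8 macrophage marker genes, 1 of 5 T cell genes, 2 of 4 B cell genes and 0 of 4 fibroblast genes.

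The sequences of 6 new loci show the range of the DNA underneath: the 3 strongest, and the strongest of the loci without PU.1 and CEBPa, without any BALB/cJ peak, and within 1 kb of a transcription start site (TSS). Each is the central 200 bp on the plus strand of GRCm38, the same assembly as mm10, and capitals mark exact matches on either strand to the TRE, the PU.1 motif ACTTCCT, the CEBP motif or the NFκB motif.
Fos, chr12:85513727-85513926: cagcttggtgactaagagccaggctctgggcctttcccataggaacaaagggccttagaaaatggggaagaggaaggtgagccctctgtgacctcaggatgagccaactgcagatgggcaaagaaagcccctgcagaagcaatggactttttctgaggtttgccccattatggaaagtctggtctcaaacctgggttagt
Cd44, chr2:102873353-102873552: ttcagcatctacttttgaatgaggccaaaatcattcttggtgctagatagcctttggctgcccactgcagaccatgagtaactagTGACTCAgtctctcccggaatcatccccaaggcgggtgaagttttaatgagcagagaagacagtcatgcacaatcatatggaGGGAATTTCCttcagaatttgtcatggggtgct
Zbtb32, chr7:30594397-30594596: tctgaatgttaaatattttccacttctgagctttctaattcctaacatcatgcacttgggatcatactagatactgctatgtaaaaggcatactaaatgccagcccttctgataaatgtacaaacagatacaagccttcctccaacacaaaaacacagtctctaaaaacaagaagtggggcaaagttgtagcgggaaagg
Apbb2, chr5:66542583-66542782: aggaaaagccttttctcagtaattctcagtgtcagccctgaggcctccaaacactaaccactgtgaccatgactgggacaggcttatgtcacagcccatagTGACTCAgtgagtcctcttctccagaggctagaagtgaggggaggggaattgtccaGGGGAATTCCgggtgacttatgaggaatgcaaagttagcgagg
Tns3, chr11:8560963-8561162: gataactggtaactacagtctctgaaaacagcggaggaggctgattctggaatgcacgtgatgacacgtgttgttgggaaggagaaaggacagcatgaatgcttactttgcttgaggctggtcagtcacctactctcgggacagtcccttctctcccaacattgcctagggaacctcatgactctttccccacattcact
Olfr432, chr1:174048948-174049147: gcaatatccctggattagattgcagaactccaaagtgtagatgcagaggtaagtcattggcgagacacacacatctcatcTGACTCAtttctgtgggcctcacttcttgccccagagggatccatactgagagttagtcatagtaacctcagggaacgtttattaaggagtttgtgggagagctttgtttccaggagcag
The Cd44 locus held a TRE at bases 86 to 92 and an NFκB match at bases 168 to 177. The Apbb2 locus also held both, a TRE at bases 102 to 108 and an NFκB match at bases 158 to 167. The Olfr432 locus held a TRE at bases 81 to 87. The loci near Fos, Zbtb32 and Tns3 held no exact match to these 4 motifs in the window.

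Strength was taken as the mean, over the ATF3, JunD, Fos and JunB KLA lists, of the percentile of a locus's count within the list. The strongest new locus, at the 99.9th percentile, was chr12:85513690-85513964, an intergenic site 39.9 kb downstream of the TSS of Fos (ENSMUSG00000021250.13), which encodes an AP-1 monomer itself. Its KLA counts were 378 for ATF3, 1034 for JunD, 293 for Fos, 153 for JunB, 110 for Jun and 127 for FosL2. PU.1 (count 183) and CEBPa (111) had a peak there in KLA and none in Veh. In BALB/cJ the KLA counts were 234 for ATF3, 244 for JunD, 388 for Fos and 197 for JunB. Veh peaks of ATF3 (28, list median 36) and JunD (51, list median 43) were listed there. The knockout had an ATF3 Veh peak with a count of 26 (list median 29). So the strongest site had no listed resting peak in C57BL/6 and had listed ones in the other genotypes, of which the BALB/cJ JunD peak was above its list median.

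The next was an intronic site of Cd44 (ENSMUSG00000005087.17), the hyaluronan receptor, at chr2:102873311-102873596 and 27.9 kb downstream of the nearest Cd44 TSS. Its KLA counts were 337 for ATF3, 895 for JunD, 232 for Fos and 136 for JunB. PU.1 was listed in KLA alone with a count of 66, CEBPa in neither treatment, and no Veh list of BALB/cJ or the knockout held a peak. The locus at Zbtb32, a zinc-finger repressor, at chr7:30594154-30594841 had a JunD KLA count of 1039. It carried PU.1 in Veh (165) and KLA (155), which is 3.36-fold higher in KLA after scaling (defined below), and CEBPa in KLA only (32).

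The other 7 of the 10 strongest lay near Flrt3, an adhesion protein, Ptges, the inducible prostaglandin E synthase, Zfp217, a zinc-finger factor, Slc7a11, the cystine transporter, St3gal1, a sialyltransferase, Tmprss4, a membrane protease, and the immediate-early gene Ier5. The Flrt3 locus lies inside an intron of Macrod2, 175 kb from the Flrt3 TSS, and the Tmprss4 locus inside an intron of BC049352, so the nearest gene is only a label for position. Over the 10 strongest, counts ran from 230 to 378 for ATF3, 777 to 1039 for JunD, 139 to 293 for Fos and 92 to 153 for JunB. Jun and FosL2, whose KLA peaks the selection did not require, had a KLA peak at 10 of 10, against 67% and 40.6% of all new loci. PU.1 had a KLA peak at 10 of 10 and a Veh peak at 2, against 55.1% and 21.4% of all new loci. CEBPa had a KLA peak at 8 and a Veh peak at 0, against 33.2% and 4.28%.

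Over all 2546 new loci, the median percentile was 63.7 in the ATF3 list, 65.4 in the JunD list, 61.0 in the Fos list and 38.2 in the JunB list. The same values at the 9060 loci that held these 4 monomers and a Veh peak of ATF3, Jun or JunD were 83.9, 82.0, 76.7 and 60.5. The plot of strength gives these values as a description of the loci that the selection kept.

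**Figure D1:**
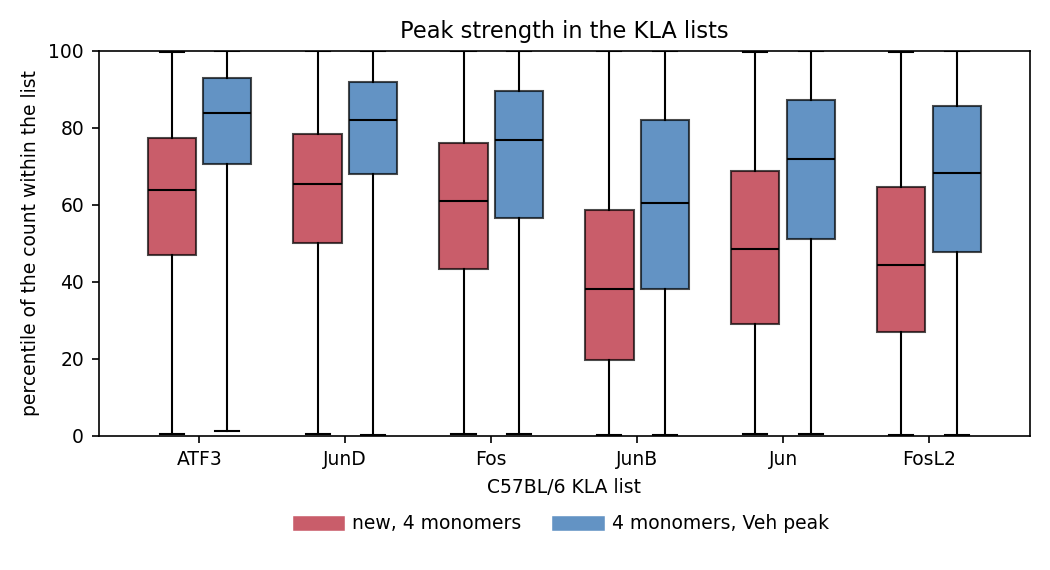
Peak strength in the KLA lists of C57BL/6. Each box gives the median and quartiles, with whiskers from the lowest to the highest value, of the percentile of a locus's count within a list (y axis) for each monomer (x axis); red, the 2546 new loci (Jun 1705, FosL2 1034); blue, the 9060 loci with the same 4 monomers and a Veh peak (Jun 7852, FosL2 5483). The red medians lie between 38.2 and 65.4 and below the blue median in every list.

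At the edge of the selection, the lowest counts of a new locus were 32 for ATF3, 123 for JunD, 24 for Fos and 16 for JunB, next to the lowest counts of those whole lists, 31, 120, 23 and 16. Just outside it, 3626 loci without a Veh peak held 3 of the 4 monomers, and 3117 of them lacked JunB, 258 Fos, 147 JunD and 104 ATF3. Just outside on the Veh side, 757 loci with the 4 monomers were left out for an ATF3 Veh peak alone (median count 43, from 26 to 216), 304 for JunD alone (median 37.5, 27 to 141) and 171 for Jun alone (median 18, 12 to 54). A further 531 new loci, 20.9%, had such a Veh peak within 1 kb without touching it.

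Of the new loci, 45.1% were intronic and 44.7% intergenic, against 44.3% and 38.7% of all KLA loci, and 8.21% (95% interval 7.2 to 9.34) within 1 kb of the TSS of a protein-coding gene, against 14.7% of all KLA loci and 7.26% of the loci with the 4 monomers and a Veh peak. The other 50 loci were exonic. The median distance to a TSS was 21 kb, against 16.3 kb over all KLA loci. The 209 promoter-proximal loci resembled the rest in strength (median percentile 55.1 against 56.0) and held a TRE less often, at 25.8% against 38.8%. The strongest of them were 0.157 kb upstream of Olfr432, an olfactory receptor gene, 0.669 kb upstream of Ipo5, an importin, and 0.381 kb upstream of Pde2a, a phosphodiesterase. Their ATF3 KLA counts were 183, 213 and 164, and PU.1 was listed at each in KLA alone, with counts of 50, 109 and 63.

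Within 100 kb, 2247 new loci had a protein-coding TSS, and 1601 genes, 7.33% of the 21840 protein-coding genes searched, were nearest to at least 1 of them. Most genes, 1181, had a single new locus, and 20 had 5 or more. Jarid2, a Polycomb cofactor, had the most, 13 of its 64 KLA loci, spread over 316 kb. Cd44 had 10 of 56, Foxp1, a forkhead factor, 9 of 60, Med13l, a Mediator subunit, 8 of 36, and Ccl5, a chemokine of T cell recruitment, 8 of 13. The Ccl5 cluster was the most compact, 22.8 kb, and none of its other KLA loci held the 4 monomers with a Veh peak. Of its 8 new loci, 3 had PU.1 and 5 CEBPa in KLA only, 4 held an NFκB motif, and 6 had the 4 monomers in BALB/cJ KLA. In this order the shares over all new loci were 34.4%, 29.3%, 21.3% and 67.8%.

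Genes of the inflammatory response were counted over 8 lists of 159 genes drawn up with earlier results of these data known. Some 87 of them, 54.7%, had a new locus nearest within 100 kb. This held for 7.33% of all protein-coding genes and 15.9% of the 10099 genes nearest to any KLA locus. The gene counts here and below are not adjusted for the number of KLA loci of a gene. Of the 1549 KLA loci of the listed genes, 177 were new loci, 11.4% against 5.84% of all KLA loci with a TSS within 100 kb. Of the cytokines and chemokines, 21 of 32 genes had one, and 51 of their 270 KLA loci, 18.9% (14.7 to 24.0), were new loci, the highest share of the 8 lists. This interval overlaps those of the prostaglandin, nitric oxide and arginine genes, the migration, matrix and adhesion genes, the NFκB list and the TLR4 list below. The strongest lay near Ccl5, Ccl9, Il1a, Il27 and Ccl2. The locus 20.8 kb upstream of Il1a, which encodes interleukin-1α, had KLA counts of 203 for ATF3, 746 for JunD, 137 for Fos and 79 for JunB, and carried PU.1 in Veh (174) and KLA (169), which is 3.47-fold higher in KLA after scaling. At Il6, Il12a and Ccl5 the new loci (2, 2 and 8) came without any locus that held the 4 monomers and a Veh peak.

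The list of prostaglandin, nitric oxide and arginine genes had new loci at 6 of 10 genes and 15.9% (9.14 to 26.3) of its KLA loci. The Ptges locus had ATF3, JunD, Fos and JunB counts of 236, 804, 188 and 136 and a CEBPa peak in KLA only (169). The locus 33.6 kb upstream of Nos2, the inducible nitric oxide synthase, was weaker (136, 449, 81 and 59) and had CEBPa (71) but no PU.1. Migration, matrix and adhesion genes had new loci at 10 of 18 genes (12.6% of KLA loci, 8.7 to 18), among them Cd44, Itgav, Mmp9 and Itga5. The Mmp9 locus, 0.499 kb from the TSS of this matrix metalloprotease, had PU.1 in KLA only with a count of 120.

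NFκB subunits and their inhibitors had new loci at 9 of 19 genes and 10.2% (6.88 to 14.8) of KLA loci. Tnfaip3, which encodes the inhibitor A20, had 4, Nfkb1 5, Nfkbiz 3 and Nfkbia, which encodes IκBα, 2. The strongest, 30.8 kb upstream of Tnfaip3, had counts of 265 for ATF3, 841 for JunD, 169 for Fos and 92 for JunB. Of the 23 new loci of this list, 19 had a PU.1 KLA peak and 16 had it in KLA only, against 55.1% and 34.4% of all new loci. AP-1 and immediate-early genes had new loci at 16 of 28 genes (9.33%, 6.54 to 13.2), with 6 at Fos, 5 at Fosl2 and 1 each at Atf3 and Jun. The list of MAPK phosphatases and feedback regulators had them at 15 of 20 genes (9.01%, 5.97 to 13.4), mostly 1 locus a gene, such as Dusp1, Dusp4, Dusp14 and Spry1. The intervals of the NFκB, AP-1 and MAPK lists overlap each other.

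The TLR4 receptor and its adaptors had new loci at 3 of 16 genes (Irak2, Irak3 and Tab2) and 7.35% (3.18 to 16.1) of KLA loci, and macrophage lineage factors at 7 of 15 genes and 7.03% (4.15 to 11.7). Both intervals include the 5.84% of all KLA loci. Among lineage factors, Mitf had 4 and Irf1 3, and Spi1, which encodes PU.1, and Cebpb had 1 and 2. The Spi1 locus, 5.09 kb upstream, had counts of 91 for ATF3, 367 for JunD, 66 for Fos and 33 for JunB and a PU.1 peak in KLA only (52). Of the 13 new loci of this list, 0 had an AP-1 Veh peak in the knockout (27.6% of all new loci) and 2 had one in BALB/cJ (27.3%).

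PU.1 was listed at more new loci in KLA than in Veh. In Veh, 21.4% (19.9 to 23.0) held a PU.1 peak, and in KLA 55.1% (53.1 to 57), against 42.3% and 52.2% of all KLA loci. The KLA share was near that of all KLA loci, and was 49.9% with a stricter score and 45.2% with peak centres within 100 bp. The Veh share was near the 21.7% of all KLA loci without a Veh peak, of which 36.5% held PU.1 in KLA. PU.1 was listed in KLA only at 875 new loci, in both treatments at 527, in Veh only at 18 and in neither at 1126. The 34.4% (32.5 to 36.2) with PU.1 in KLA only compare with 13.7% of all KLA loci and 15.6% of those with the 4 monomers and a Veh peak. A peak in KLA only needs PU.1 to be absent in Veh, and 63.9% of the latter held it in Veh. Of the loci without PU.1 in Veh, 875 new loci had it in KLA and 1126 did not. At loci with the 4 monomers and a Veh peak the counts were 1416 and 1852, a similar split, and over all KLA loci 5933 and 19021. Among other loci without a Veh peak, 18.5% of the 3306 with ATF3 and JunD but no Fos and 7.26% of the 4478 with ATF3 alone had PU.1 in KLA only. The Veh PU.1 list held the higher counts: they summed to 13809143 over 41573 peaks, against 3342808 over 40645 peaks in KLA.

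CEBPa was also listed more often in KLA than in Veh. It was listed at 4.28% (3.56 to 5.14) of the new loci in Veh and 33.2% (31.3 to 35.0) in KLA, against 21.4% and 28.7% of all KLA loci. Over all KLA loci without a Veh peak it was at 4.7% in Veh, so a low resting share was common to such loci, and at 15.6% in KLA. CEBPa was present in KLA only at 746 new loci, 29.3% (27.6 to 31.1), against 11.3% of all KLA loci, 16.5% of loci with the 4 monomers and a Veh peak, and 5.18% of new ATF3-alone loci. It was present in both treatments at 98 and in Veh only at 11. Of the loci without CEBPa in Veh, 746 new loci had it in KLA and 1691 did not. At loci with the 4 monomers and a Veh peak, 42% of which held CEBPa in Veh, these counts were 1494 and 3761. The CEBPa lists held 12892 peaks in Veh and 14802 in KLA, and with both at the length of the shorter the KLA share at the new loci was 29.5%.

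**Figure D2:**
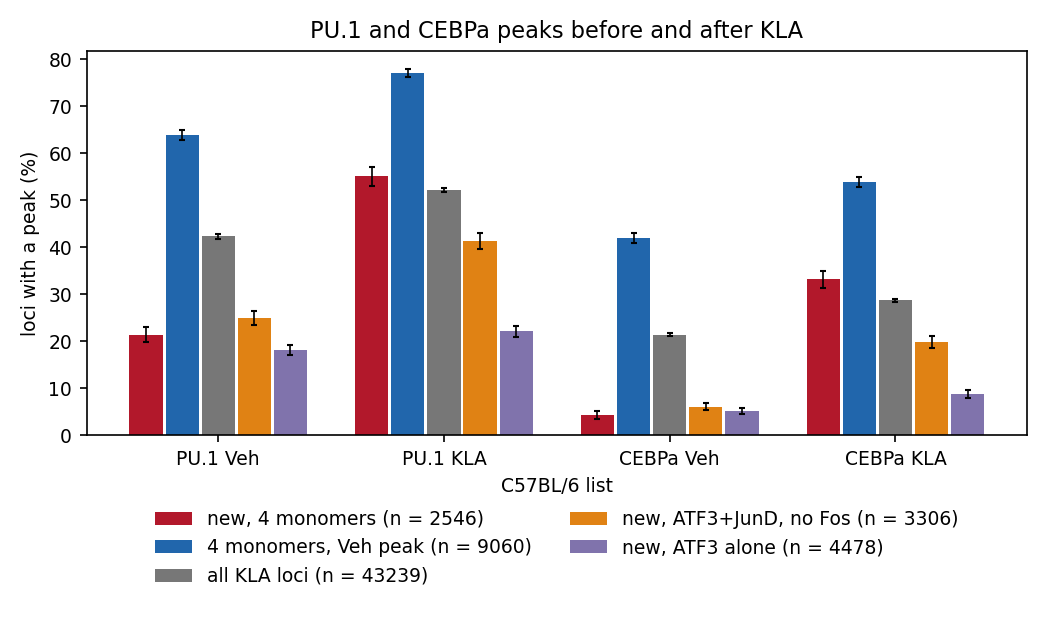
Share of loci (y axis, %) with a PU.1 or CEBPa peak in Veh and KLA (x axis) for 5 sets of loci. Bars are percentages and error bars 95% Wilson intervals; the new loci (red) go from 21.4% to 55.1% for PU.1 and from 4.28% to 33.2% for CEBPa.

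The PU.1 and CEBPa peaks of KLA coincided in part. At 317 new loci, 12.5%, both were listed in KLA only, PU.1 was listed in KLA only without CEBPa in either treatment at 523, and CEBPa in KLA only without PU.1 at 280. At least 1 of them was listed in KLA only at 1304 new loci, 51.2% (49.3 to 53.2). A further 342 held PU.1 in both treatments and no CEBPa. Neither factor was listed in either treatment at 810 new loci, 31.8% (30.0 to 33.7), a share close to the 33.7% of all KLA loci, while it was 10.4% for loci with the 4 monomers and a Veh peak and 67.6% for new loci with ATF3 alone. As a description, the median strength percentile was 69.0 at loci with both factors in KLA only and 47.9 at loci with neither factor.

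Where PU.1 was listed in both treatments, its KLA count stood higher after scaling at 446 of the 527 new loci. Counts were scaled by the median KLA to Veh ratio over the 16659 KLA loci with a PU.1 peak in both lists, 0.28. A higher scaled count is thus relative to those loci, and the unscaled count can be lower in KLA than in Veh. The scaled ratio of the 527 new loci had a median of 1.55 (quartiles 1.17 and 2.26), and 176 of them, 33.4% (29.5 to 37.5), were at least 2-fold higher in KLA, against 4.33% of all KLA loci with both. None of the 527 was 2-fold lower, while 522 of all KLA loci were. For CEBPa the median over 98 new loci was 1.66, and 37 were at least 2-fold higher, 37.8% (28.8 to 47.6) against 4.49%. At Flrt3 the PU.1 counts of 130 in Veh and 201 in KLA gave a scaled ratio of 5.53, and at Acod1, the itaconate enzyme gene, 299 and 175 gave 2.09. With counts scaled instead by the sum of each list, 41.6% of the 527 passed, against 7.41% of all KLA loci with both.

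These shares rose with strength, and the new loci differed from loci of like strength with a Veh peak. In the band of mean percentile 80 or more, 53.8% of 301 new loci had PU.1 in KLA only, against 19.8% of 3647 loci with the 4 monomers and a Veh peak. Below 40 the values were 21.5% of 563 and 7.73% of 634. For CEBPa in KLA only, the shares were 52.8% against 20.5% in the highest band and 15.1% against 9.62% in the lowest. The share of new loci with PU.1 in Veh did not rise with strength, from 22.4% in the lowest band to 23.3% in the highest, and stayed below the 59.5% to 66.4% of loci with a Veh peak. A peak in KLA only needs absence in Veh, so a smaller share of the loci with a Veh peak could have PU.1 in KLA only.

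**Figure D3:**
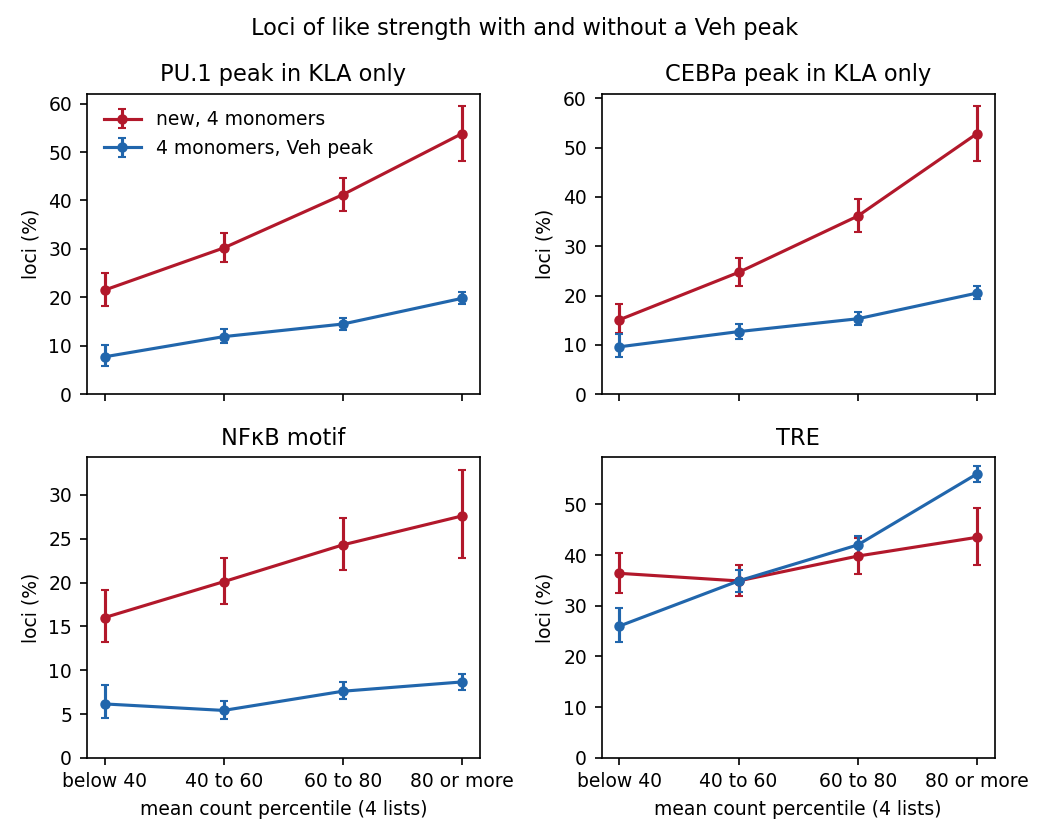
New loci (red) and loci with the same 4 monomers and a Veh peak (blue) in 4 bands of strength (x axis, mean count percentile over the ATF3, JunD, Fos and JunB KLA lists). Points are the percentage of loci (y axis) with PU.1 in KLA only, CEBPa in KLA only, an NFκB motif or a TRE, with 95% Wilson intervals. The first 3 are higher at the new loci in every band, and the TRE share of the highest band is lower, 43.5% against 56.0%. A peak in KLA only needs absence in Veh, where both factors were listed less often at the new loci.

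KLA peaks of Jun and FosL2, which the selection did not require, were often listed too. Jun had a KLA peak at 67% (65.1 to 68.8) of the new loci, against 40.3% of all KLA loci and 86.7% of loci with the 4 monomers and a Veh peak. FosL2 had one at 40.6% (38.7 to 42.5), against 24.5% and 60.5%. Over all KLA loci without a Veh peak the shares were 22.6% for Jun and 13.8% for FosL2. At those with ATF3 and JunD but no Fos they were 20% and 8.08%. All 6 monomers were listed at 811 new loci, Jun without FosL2 at 894, FosL2 without Jun at 223 and neither at 618. In this order the median strength percentiles were 70.3, 57.1, 48.3 and 38.5, a description only, since strength comes from the lists used for selection. PU.1 in KLA only was listed at 45.1% of the loci with all 6 and 22.5% of those with neither. The Veh lists not used for selection held 41 FosL2 peaks at the new loci (1.61% against 11.0% of all KLA loci), 8 Fos peaks (0.314% against 3.03%) and 0 JunB peaks (at most 0.151%, against 0.784%). Over all KLA loci without an ATF3, Jun or JunD Veh peak these shares were 1.28%, 1.07% and 0.0462%.

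The DNA of the new loci held a TRE less often than that of loci with the 4 monomers and a Veh peak, and an NFκB motif more often. A TRE was found in the central 200 bp of 37.7% (35.8 to 39.6) of the new loci, against 30.4% of all KLA loci, 45.1% of the loci with the 4 monomers and a Veh peak and 22.7% of new ATF3-alone loci. The NFκB motif was found in 21.3% (19.8 to 23.0), against 8.28% of all KLA loci, 7.48% of loci with the 4 monomers and a Veh peak, 10.5% of new loci with ATF3 and JunD but no Fos and 6.52% of new ATF3-alone loci. In the highest band of strength the NFκB share was 27.6% against 8.66% and the TRE share 43.5% against 56%, while in the lowest band the TRE was more frequent at the new loci, 36.4% against 26%. The CRE, TGACGTCA, the other AP-1 and ATF site, was found at 6 of the new loci, 0.236% (0.108 to 0.513) against 1.54%.

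The motifs of PU.1 and CEBP factors were found less often than over all KLA loci. The PU.1 motif was in 13.5% of the new loci against 18.6%, the CEBP motif in 5.15% against 7.67%, and the composite CEBP-ATF site TGATGCAA in 1.02% against 2.15%. Over all KLA loci without a Veh peak these shares were 15%, 6.38% and 1.21%, so lower shares were common to such loci. The IRF motif GAAANNGAA was in 9.23% against 8.89%, the Runx motif TGTGGTT in 7.15% against 7.09%, the NFAT motif TGGAAAA in 6.83% against 5.22%, and the E-box CACGTG in 3.26% against 4.63%. The GC box GGGCGGG was in 4.16% of the new loci, the CArG box in 0.825% and the Egr motif GCGNGGGCG in 0.432%, against 6.37%, 1.26% and 0.9% of all KLA loci. All were searched on both strands as exact letters, and an NFAT match can overlap an NFκB or IRF match. A match is a description of the letters, not a bound site. A TRE and an NFκB motif stood together at 174 new loci, 6.83%, and 1217, 47.8%, held neither.

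The motifs divided with the partner factors. At the 810 new loci without PU.1 or CEBPa the TRE share was 56.7%, at the 875 with PU.1 in KLA only 32.3%, and at the 527 with PU.1 in both treatments 20.3%. The PU.1 motif ran the other way across these classes, from 6.05% through 13.1% to 30.9%. The NFκB motif was in 16.5%, 27.5% and 21.6%, so its share was highest where PU.1 was listed in KLA only. The CEBP motif was in 10.3% of the 746 loci with CEBPa in KLA only and 1.77% of the 1691 with no CEBPa. Read from the motifs, 40.6% of new loci with a TRE had PU.1 in KLA against 63.8% of those without a TRE, and 65.4% of those with an NFκB motif had it against 52.3% without.

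**Figure D4:**
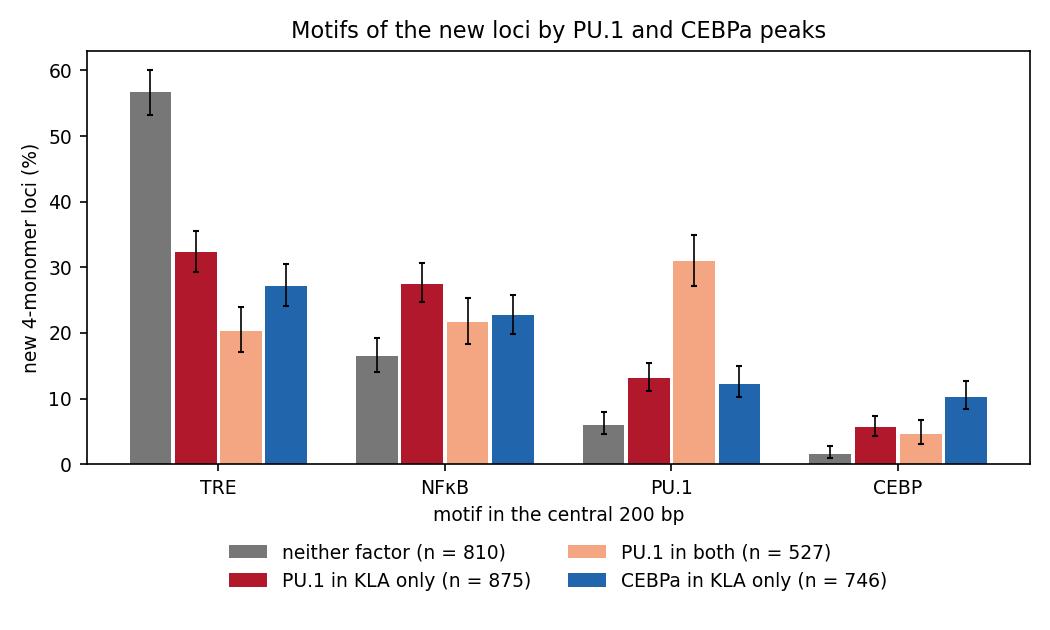
Share of new loci (y axis, %) with each motif in the central 200 bp (x axis) by the PU.1 and CEBPa peaks they carry. Bars are percentages and error bars 95% Wilson intervals; a locus can be in both the PU.1 and the CEBPa class. The TRE is most frequent, 56.7%, where neither factor was listed.

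The loci without PU.1 and CEBPa were headed by sites near Apbb2, an adaptor of the amyloid precursor protein, Ttc26, a ciliary transport protein, and Otos. The Apbb2 locus, at chr5:66542554-66542812, had KLA counts of 221 for ATF3, 717 for JunD, 147 for Fos and 91 for JunB, below the lowest of the 10 strongest loci for ATF3, JunD and JunB. In BALB/cJ it had 149, 150, 246 and 113 in KLA and Veh peaks of Jun (20) and JunD (42), and the knockout had an ATF3 Veh peak (35). The Ttc26 locus had 258, 693, 168 and 66, and the Otos locus 179, 736, 138 and 79, and no Veh peak was listed there in the knockout.

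Most new loci were also AP-1 loci in BALB/cJ after KLA. Fos was listed there at 93.8% (92.7 to 94.6), ATF3 at 89.4%, JunD at 83.4% and JunB at 76.9%, and all 4 at 1725, 67.8% (65.9 to 69.5), against 38.9% of all KLA loci and 84.3% of loci with the 4 monomers and a Veh peak. At like strength the new loci were nearer to the latter, with 96.7% against 96.4% in the highest band and 38.0% against 43.5% in the lowest. Of the other new loci, 452 had 3 of the 4 monomers in BALB/cJ, 202 had 2, 86 had 1 and 81 had 0. Jun was listed at 35.2% in the BALB/cJ KLA list, which held 11317 peaks against 17480 in C57BL/6.

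Absence at rest carried over to BALB/cJ at 1851 of the 2546 new loci, 72.7%. ATF3, Jun or JunD was listed in BALB/cJ Veh at 695 new loci, 27.3% (25.6 to 29.1), against 55.2% of all KLA loci and 90.1% of loci with the 4 monomers and a C57BL/6 Veh peak. Those sets include the resting loci that the selection left out, and over all 19462 KLA loci without a C57BL/6 Veh peak the share was 23.4%, lower than at the new loci. JunD made up most of it, with 587 loci, and ATF3 had 268 and Jun 110. The BALB/cJ JunD Veh list was longer than that of C57BL/6, 28652 against 19653 peaks, and its peaks at the new loci were low, with a median percentile of 29.5. The full pattern, 4 monomers in KLA and no ATF3, Jun or JunD in Veh, was met in BALB/cJ at 1196 new loci, 47.0% (45.0 to 48.9). This compares with 9.32% of all KLA loci and 15.3% of those without a C57BL/6 Veh peak. New loci with an NFκB motif met it at 57.8% and those without at 44.0%. The Fos Veh list of BALB/cJ was empty and its JunB Veh list held 9 peaks.

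For 75 new loci, 2.95% (2.36 to 3.68), no BALB/cJ list held an AP-1 peak, against 10.5% of all KLA loci. The strongest lay in an intron of Tns3, which encodes the focal adhesion protein tensin 3, at chr11:8560884-8561242. Its C57BL/6 KLA counts were 164 for ATF3, 621 for JunD, 116 for Fos, 57 for JunB, 51 for Jun and 65 for FosL2, and PU.1 was listed in Veh (391) and KLA (196), a scaled ratio of 1.79. The next, 45.8 kb upstream of Mfhas1, had 198, 597, 79 and 51, and the third, 78.3 kb from Cd200, an inhibitory surface glycoprotein, had 184, 605, 101 and 38. At the strength of these 3 loci, in the band of percentile 80 or more, 291 of 301 new loci held the 4 monomers in BALB/cJ KLA. Sequence differences between the strains were not analysed here.

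In PPARg knockout TGEMs, mapped in Veh only, ATF3, Jun or JunD was listed at 702 new loci, 27.6% (25.9 to 29.3), against 55.5% of all KLA loci and 91.1% of loci with the 4 monomers and a C57BL/6 Veh peak. Among KLA loci without a C57BL/6 Veh peak it was lower than at the new loci, 22.2% over all of them and 20.4% with ATF3 alone. ATF3 had 549, JunD 292 and Jun 16. The knockout ATF3 list was longer than the C57BL/6 Veh list, 28318 against 23160 peaks, and its peaks at the new loci had a median percentile of 22.3. PPARg itself, in C57BL/6 Veh, was listed at 581 new loci, 22.8% (21.2 to 24.5), against 42.5% of all KLA loci. Among KLA loci without a C57BL/6 Veh peak its share was lower than at the new loci, 18% over all of them and 12.8% with ATF3 alone. Of the 581, 49.7% had a knockout Veh peak, against 21.0% of the 1965 without PPARg. The 581 also held more BALB/cJ Veh peaks, 48.0% against 21.2%, and more PU.1 in Veh, 39.1% against 16.2%. What these lists share at those loci was not tested.

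The highest-ranked new loci with a knockout Veh peak were those near Fos, Flrt3 and Zfp217. The Zfp217 locus, in an exon at chr2:170120558-170120813, had knockout Veh counts of 90 for ATF3, 93 for JunD and 18 for Jun and BALB/cJ Veh counts of 91, 120 and 53, far above the counts of 29 and 16 for ATF3 and JunD at Flrt3 in the knockout. It was thus a site with marked resting peaks in both other genotypes and none listed in C57BL/6. Over all new loci, 360 had a Veh peak in both BALB/cJ and the knockout and 1037, 40.7%, in at least 1 of them. The 1509 without any had PU.1 at 14.4% in Veh and 52.0% in KLA, CEBPa at 2.58% and 31.2%, and the NFκB motif at 24.6%.

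**Figure D5:**
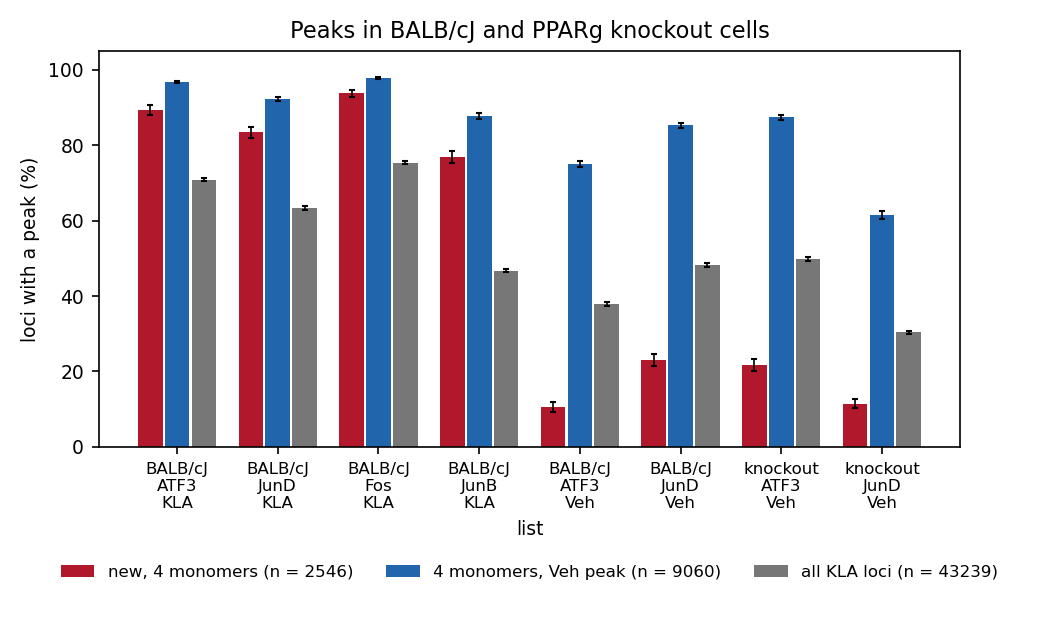
Share of loci (y axis, %) with a peak in BALB/cJ KLA, BALB/cJ Veh and PPARg knockout Veh lists (x axis) for the new loci (red), the loci with the same 4 monomers and a C57BL/6 Veh peak (blue) and all KLA loci (grey), with 95% Wilson intervals. The red bars reach 76.9% to 93.8% in BALB/cJ KLA and 10.5% to 23.1% in the Veh lists shown.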

How the data were processed

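ChIP-seq was measured in TGEMs. For alignment the authors used Bowtie2 with mm10 as the reference for C57BL/6 and knockout reads, and a strain-specific genome for BALB/cJ whose coordinates were then converted to mm10. HOMER peaks were called over the matching input, and the authors removed peaks with an irreproducible discovery rate (IDR) of 0.05 or more over replicate experiments. The deposited lists give for each peak a whole-number count, not scaled to library size, and a scaled IDR score from 540 upwards.

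Groups came from the labels (34 samples, of which 4 inputs have no list here). Peaks were merged, overlapped (1 bp) and annotated with GENCODE vM21 (basic) on GRCm38 in Python 3.11.15 with pandas 2.3.3 and pysam 0.24.0. No loci were filtered out, and 5 KLA loci on scaffolds, none of them new, got no gene or motif. Named loci were the 10 strongest, up to 5 for each gene list, the 3 strongest of each of 6 classes, and the 5 genes with the most loci. The loci and lists were chosen with earlier results of these data known. Only shares and intervals were computed, since each condition has 1 list and no test over samples exists. Overlap, motif search and intervals were tested on simulated data. The Cxcl11 gene had no protein-coding TSS and was left out of its list. Alternatives were another score threshold, the strongest 50% of each list, wider or narrower overlap, other Veh lists, windows, TSSs and scalings. The locus of 1 listed gene is not reported here by name.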

Additional observations from a re-analysis of the deposited data

How the results depend on the processing

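Of 78 values recomputed under alternatives, 45 stayed within the 95% interval of the main value, or within 1.5 times for the number of loci, and 33 moved; the causes were not tested. The number of new loci was 1678 at a scaled score of 830 or more, 772 with the strongest 50% of each KLA list, and 1509 with no Veh peak in BALB/cJ or the knockout either, an alternative added after seeing the data, as were equal list lengths and scaling over all PU.1 loci.

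At a score of 830 or more, PU.1 in KLA was 49.9%, CEBPa in Veh 3.22%, the TRE 40.3%, all 4 monomers in BALB/cJ KLA 78.3% and a BALB/cJ Veh peak 29.1%. With the strongest 50%, PU.1 in KLA was 67.6%, CEBPa in KLA 45.7%, Jun 68.8%, the NFκB motif 27.6%, all 4 in BALB/cJ KLA 88.3%, a BALB/cJ Veh peak 29.9% and a knockout Veh peak 31.3%. With peak centres within 100 bp, PU.1 was 16.3% in Veh and 45.2% in KLA, CEBPa in KLA 29.9%, all 4 in BALB/cJ KLA 65.6%, a BALB/cJ Veh peak 25.5% and a knockout Veh peak 25.1%. In the central 100 bp the TRE was 27.8% and the NFκB motif 12.3%. Without a Veh peak within 1 kb, 6.25% lay within 1 kb of a TSS, and 11.6% did with TSSs of all annotated genes. Without BALB/cJ and knockout Veh peaks, PU.1 was 14.4% in Veh and 52.0% in KLA, CEBPa 2.58% and 31.2%, and the NFκB motif 24.6%. With equal list lengths CEBPa in KLA was 29.5%. PU.1 at least 2-fold higher was 41.6% with list sums and 40.4% with all PU.1 loci (7.41% and 6.68% over all KLA loci with both). The PU.1 and CEBPa shares were higher in KLA than in Veh in every alternative that gives both. No paired analysis was possible because each condition has 1 list and no result comes from a test.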
